A study of Mus musculus with 18 samples.

Results

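The oxidative phosphorylation genes were followed across 18 bulk RNA-seq libraries of sorted neonatal mouse cardiac fibroblasts. Members were gene symbols that begin as the subunits of the respiratory complexes do (Nduf a, b, c, s or v with a number, Sdha to Sdhd, Uqcr, Cox4 to Cox8 with a letter, Atp5, and the mt- genes for Nd, Co, Cytb and Atp). Of 109 symbols that matched, 8 symbols containing -ps and 6 symbols without a count were left out. This left 95 members of the 55453 symbols in the table, 28906 of which had a count. The nuclear genome encodes 86 of the members and the mitochondrial genome 9. By complex, the nuclear members were 38 of complex I, 4 of complex II, 8 of complex III, 19 of complex IV and 17 of complex V, and the mitochondrial members were 7 of complex I, 1 of complex III and 1 of complex IV. Ndufa4 and Ndufa4l2 were counted with complex IV and not, as their names have it, with complex I. Members were taken by name alone, and 4 nuclear members, Ndufa11b, Ndufs6b, Ndufb4c and Cox6c2, are annotated as processed pseudogenes in GENCODE M21, had 5 to 44 counts in all, and were too low to be tested.

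The cells came from C57BL/6J pups carrying Tcf21-MerCreMer and Rosa-mTmG, and all groups received tamoxifen after birth, so that cells with an active Tcf21 promoter and their progeny carried membrane GFP. Sorting took the GFP+ cells of the apical portion of the ventricles, which also holds myocardium away from the wound. There were 6 groups of 3 libraries: un-manipulated pups at postnatal day 2 (P2 baseline) and day 10 (P10 baseline), and, taken 3 days after surgery on day 5 or day 13, pups with a sham operation or a resected apex (P2 sham, P2 resected, P10 sham and P10 resected). A resected apex regenerates when the surgery is done at P2 and scars when it is done at P10, and the study asked which fibroblast genes go with that difference. How many pups went into a library and whether replicates came from separate litters was not stated in the sources used here, so p-values measure the spread between these libraries, which may be partly technical.

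Oxidative phosphorylation is the last stage of respiration. Complex I takes electrons from NADH and complex II from succinate, complex III passes them from ubiquinol to cytochrome c, complex IV hands them to oxygen, and complex V uses the proton gradient to make ATP. All complexes but complex II are built from subunits of both genomes. Nuclear subunits are made in the cytosol and imported, while the mitochondrial ones are transcribed as long polycistronic RNAs from the circular genome. The heart muscle cell switches to oxidative metabolism after birth, and several complex IV subunits have isoforms typical of heart and skeletal muscle.

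The 7 fibroblast markers summed to between 44210 and 103403 CPM per library, where CPM is a gene's count relative to its library's TMM-scaled size. Tcf21 was at 202 to 447 CPM and Pdgfra at 256 to 878 CPM, so the defining genes of the labelled cells were present in every library. Summed markers of other cells were lower, at 163 to 1482 CPM for 12 cardiomyocyte genes, 392 to 1566 for 9 mural cell genes, 229 to 870 for 9 endothelial genes, 5.29 to 1122 for 12 macrophage genes and 25.0 to 479 for 7 red cell genes. Of these defining markers, none was at 0 in every library. In bulk RNA, fewer cells of a type and less RNA per cell cannot be told apart.

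Libraries held from 10462737 to 22980554 counted reads. The nuclear members took 0.741% to 2.12% of them and the mitochondrial members 0.106% to 0.607%. Which reads could be counted may bear on the mitochondrial share, and how much was not tested. The mouse nuclear genome carries copies of mitochondrial DNA, and a read that maps to the mitochondrion and to a copy is left out by the counting tool's default. Of the 75-base words (the read length) in mt-Co3, 99.9% also occur in an annotated transcript elsewhere, and the share was 99.5% for mt-Co2 and for mt-Atp6, 98.7% for mt-Nd4l and 97.8% for mt-Nd3. The same share was 61.5% for mt-Nd4, 39.8% for mt-Co1, 5.7% for mt-Nd2, 1.7% for mt-Nd5 and 0 for mt-Cytb, mt-Nd1 and mt-Nd6. Over all 18 libraries mt-Co2, mt-Co3 and mt-Atp6 had no count, mt-Nd4l had 3 and mt-Nd3 had 1509, while mt-Cytb had 397549. The gene mt-Atp8 also had no count. It shares no 75-base word with an annotated transcript, but it lies between mt-Co2 and mt-Atp6, and the nuclear sequence between their copies was not read here. Levels did not follow the shared words throughout. Median CPM per kb was 198 for mt-Nd4, beside 221 for mt-Nd2, 193 for mt-Nd5 and 134 for mt-Nd6.

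The shared stretches are shown by the first 75 bases of mt-Nd3, a complex I subunit, and mt-Co3, a complex IV subunit, beside their copies on chromosome 1. The positions are mt-Nd3 at chrM:9459-9533 on the plus strand, its copy Gm28438 at chr1:24613045-24613119 on the minus strand, mt-Co3 at chrM:8607-8681 on the plus strand and its copy Gm28437 at chr1:24613897-24613971 on the minus strand, all in GRCm38. Gm28438 differs from mt-Nd3 at 1 of 345 bases, T3C counted from the first base of mt-Nd3, which is in capitals. Gm28437 differs from mt-Co3 at 0 of 783 bases.
mt-Nd3: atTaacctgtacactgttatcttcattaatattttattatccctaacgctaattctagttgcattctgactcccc
Gm28438: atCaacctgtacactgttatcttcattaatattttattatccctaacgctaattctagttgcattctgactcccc
mt-Co3: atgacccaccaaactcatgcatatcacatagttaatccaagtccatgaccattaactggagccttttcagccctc
Gm28437: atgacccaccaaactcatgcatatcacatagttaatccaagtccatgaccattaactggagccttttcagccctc

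**Figure D1:**
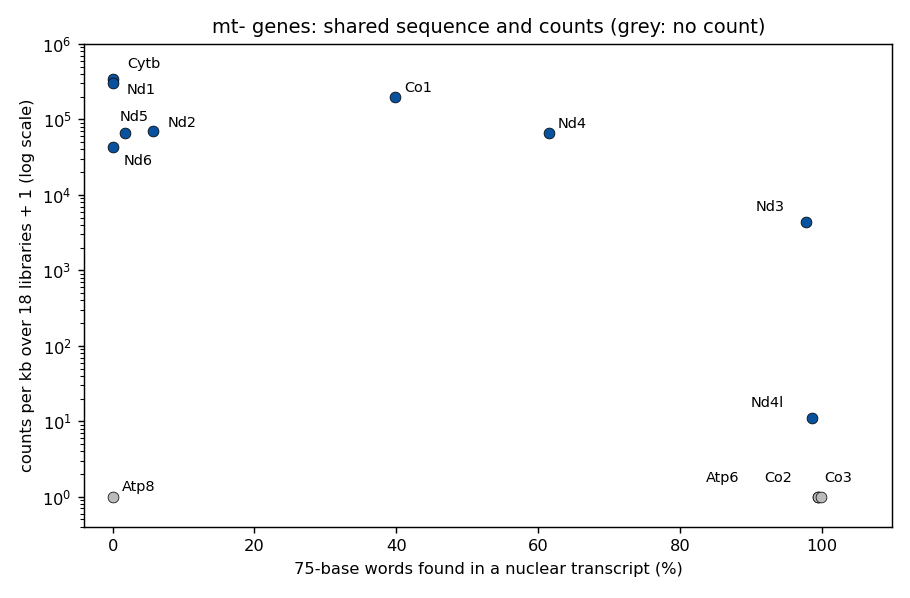
Each point is 1 of the 13 mitochondrial protein genes. The x axis is the percent of its 75-base words found in another annotated transcript and the y axis (log scale) is counts per kb of exon summed over 18 libraries, plus 1. Grey points had no count. Genes with over 97% of shared words sit at the right with few or no counts, and mt-Cytb and mt-Nd1, with none, are the highest. Also without shared words, mt-Nd6 lies below mt-Co1 and mt-Nd4, and mt-Atp8 had no count.

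The measured mitochondrial signal was carried by few genes. Over libraries, mt-Cytb, the catalytic cytochrome b of complex III, made up 24.4% to 35.4% of the mitochondrial sum. The share was 18.2% to 29.6% for mt-Co1, the catalytic subunit of complex IV, and 15.2% to 28.1% for mt-Nd1, a membrane subunit of complex I. Those of mt-Nd5 (6.38% to 17.1%), mt-Nd4 (5.93% to 8.67%), mt-Nd2 (3.19% to 6.84%) and mt-Nd6 (1.13% to 3.70%) were smaller. Together with mt-Nd3 (0.0485% to 0.205%) and mt-Nd4l (0 to 0.00478%), these are all 9 mitochondrial members.

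Nuclear members were compared with each other per kb of exon length. Exon length covers all annotated transcripts of a gene and can far exceed that of the principal one, as for Atp5l (6443 against 544 bases). The order of members depends on this choice. In complex I the highest mean was that of Ndufa2, an accessory subunit, at 261 CPM per kb, and the lowest among members tested that of Ndufb2 at 4.41. The processed pseudogene Ndufa11b was at 0.0433. In complex II they were Sdhb, the iron-sulfur subunit, at 147 and Sdhc, a membrane anchor, at 33.6. In complex III they were Uqcr10 at 202 and the core protein Uqcrc2 at 46.4. In complex IV they were Cox6a1 at 402 and Cox6b2 at 5.05, with the processed pseudogene Cox6c2 at 0.526, and in complex V Atp5b, the catalytic beta subunit, at 331 and Atp5l, a membrane subunit, at 0.386. The value of Atp5l is uncertain, since 63.4% of the words of its principal transcript also occur in other genes, mostly processed pseudogenes, and such reads were not counted. This share was also 86.9% for Atp5g2 and 50.4% for Cox7c, and it was 17.2% to 36.5% for Atp5h, Ndufb4, Uqcrb, Ndufs3, Ndufs5, Atp5o, Ndufa12 and Cox5b. Strand was not used in counting. For Ndufb6, 39.0% of exon bases overlap Smim27 on the other strand, and for Ndufa13 30.0% overlap Tssk6. Reads in such an overlap cannot be told apart from those of the partner. The counting tool's default leaves out reads that lie on exons of both genes, so these members may be undercounted.

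Isoforms typical of muscle were the smaller part of each complex IV set. Cox6a2 made up 1.14% to 8.26% of Cox6a1 and Cox6a2 per kb, with a median of 4.68% over the 18 libraries. Cox7a1 made up 3.49% to 9.99% of the Cox7a set, with a median of 6.84%. For Cox8b the range was 4.13% to 13.7%, with a median of 6.72%. Cox4i2, the isoform known from lung and oxygen-sensing cells, took 7.33% to 15% of the Cox4i set, and Cox6b2, the isoform known from testis, 0.492% to 4.30% of the Cox6b set. Ndufa4l2, a hypoxia-inducible relative of the complex IV subunit Ndufa4, took 22.9% to 62.9% of that pair, with a median of 45.2%. These shares depend on the length used. Exon length is 1381 bases for Ndufa4 and 1095 for Ndufa4l2, but their principal transcripts have 610 and 934. For Cox4i1 it is 1550 against 765, and for Cox4i2 788 against 733. With principal transcripts the shares of Ndufa4l2 and Cox4i2 would be smaller. Among the genes for subunit c of complex V, Atp5g3 took 82.2% to 87.5%, Atp5g1 9.12% to 13.6% and Atp5g2 2.59% to 5.42%, the last with the uncertainty given above.

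Of 86 nuclear members, 66 had a promoter in the RefSeq table (GRCm38.p6, 250 bases before to 50 after the start). Binding motif cores of 3 factors known from this gene group were searched on both strands. The NRF1 core GCGCATGCG was in 12.1% of the 66 promoters and 2.0% of all 27025. The ETS core CCGGAAG was in 25.8% and 9.9%, and the YY1 core AAGATGGCG in 10.6% and 1.6%. At least 1 of them was in 40.9% of the member promoters and 12.7% of all. A match is a description of these letters only.

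The promoters of a complex IV isoform pair and of Atp5md follow in lower case with a motif match in capitals. Cox6b2 is shown because its difference between ages passed edgeR's quasi-likelihood test with all libraries in the fit, and Cox6b1 is its widely expressed counterpart. Atp5md, which holds complex V dimers together, is shown for its values after P2 surgery. Cox6b2 lies at chr7:4753045-4753344, Cox6b1 at chr7:30626065-30626364 and Atp5md at chr19:47090598-47090897, all on the minus strand. The Cox6b1 and Atp5md windows hold the ETS core on the other strand, and the Cox6b2 window holds none of the 3 cores.
Cox6b2 promoter: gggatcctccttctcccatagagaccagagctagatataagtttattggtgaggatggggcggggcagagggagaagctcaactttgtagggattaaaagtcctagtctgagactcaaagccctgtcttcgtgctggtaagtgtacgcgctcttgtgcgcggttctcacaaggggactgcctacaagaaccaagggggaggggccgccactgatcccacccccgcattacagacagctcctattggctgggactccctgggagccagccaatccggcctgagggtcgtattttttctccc
Cox6b1 promoter: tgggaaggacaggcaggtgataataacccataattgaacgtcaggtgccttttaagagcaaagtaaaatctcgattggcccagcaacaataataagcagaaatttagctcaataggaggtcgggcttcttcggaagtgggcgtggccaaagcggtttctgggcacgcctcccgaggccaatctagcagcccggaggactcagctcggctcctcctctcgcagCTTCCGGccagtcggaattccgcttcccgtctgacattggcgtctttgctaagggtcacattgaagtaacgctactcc
Atp5md promoter: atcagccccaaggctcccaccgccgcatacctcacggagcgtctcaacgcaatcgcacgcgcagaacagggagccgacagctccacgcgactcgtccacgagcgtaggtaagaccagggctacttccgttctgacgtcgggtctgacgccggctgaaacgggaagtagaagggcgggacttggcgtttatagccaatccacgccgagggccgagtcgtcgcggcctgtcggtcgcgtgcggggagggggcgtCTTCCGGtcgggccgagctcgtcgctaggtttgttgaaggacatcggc

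The nuclear members moved together from library to library, and their group means lay closer to each other than the libraries within a group. Summed nuclear CPM was 10772, 9907 and 14657 in the P2 baseline libraries and 8287, 12798 and 15088 at P10 baseline. After P2 surgery the sums were 8065, 20610 and 15430 in the sham libraries and 9841, 11384 and 12422 in the resected ones. After P10 surgery they were 7799, 14995 and 14815 in the sham libraries and 11888, 11998 and 11237 in the resected ones. The highest library, P2 sham replicate 2, exceeded the lowest, P10 sham replicate 1, by 2.64-fold. On the log2 scale the pooled SD within groups was 0.43 and the SD of the 6 group means was 0.10. Group means ran from 11216 ± 1299 CPM at P2 resected to 14702 ± 6304 at P2 sham (SD, n = 3).

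**Figure D2:**
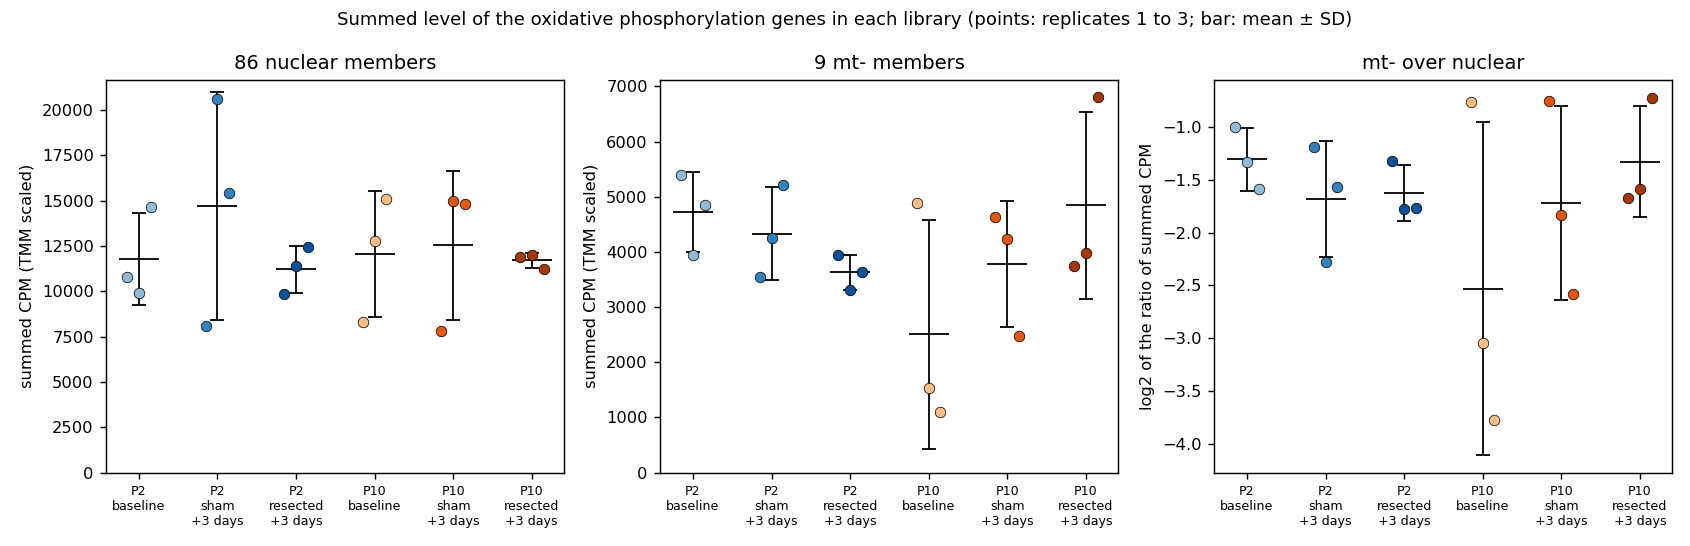
Points are single libraries and bars are the mean ± SD of 3 replicates per group, for summed CPM of the nuclear members, summed CPM of the mitochondrial members and log2 of their ratio. Every pair of groups compared overlaps in each panel, and 2 of the 3 P10 baseline libraries have the lowest mitochondrial sums, 1543 and 1095 CPM.

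Across the 18 libraries, the Pearson correlation of each gene's log2 CPM with the sum of the other nuclear members had a median of 0.90 over the 82 nuclear members tested, and 78 of them exceeded 0.5. These libraries share depth, preparation and length effects, so this is a description. Sdhb, Uqcrq and Ndufb6 were at 0.98. The exceptions were Atp5l at -0.43, Ndufs1 (the largest iron-sulfur subunit of complex I) at -0.25, Sdha (the catalytic flavoprotein of complex II) at 0.21 and Cox6b2 at 0.24. The 8 mitochondrial members tested had a median of -0.25, with a range of -0.54 to 0.09.

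**Figure D3:**
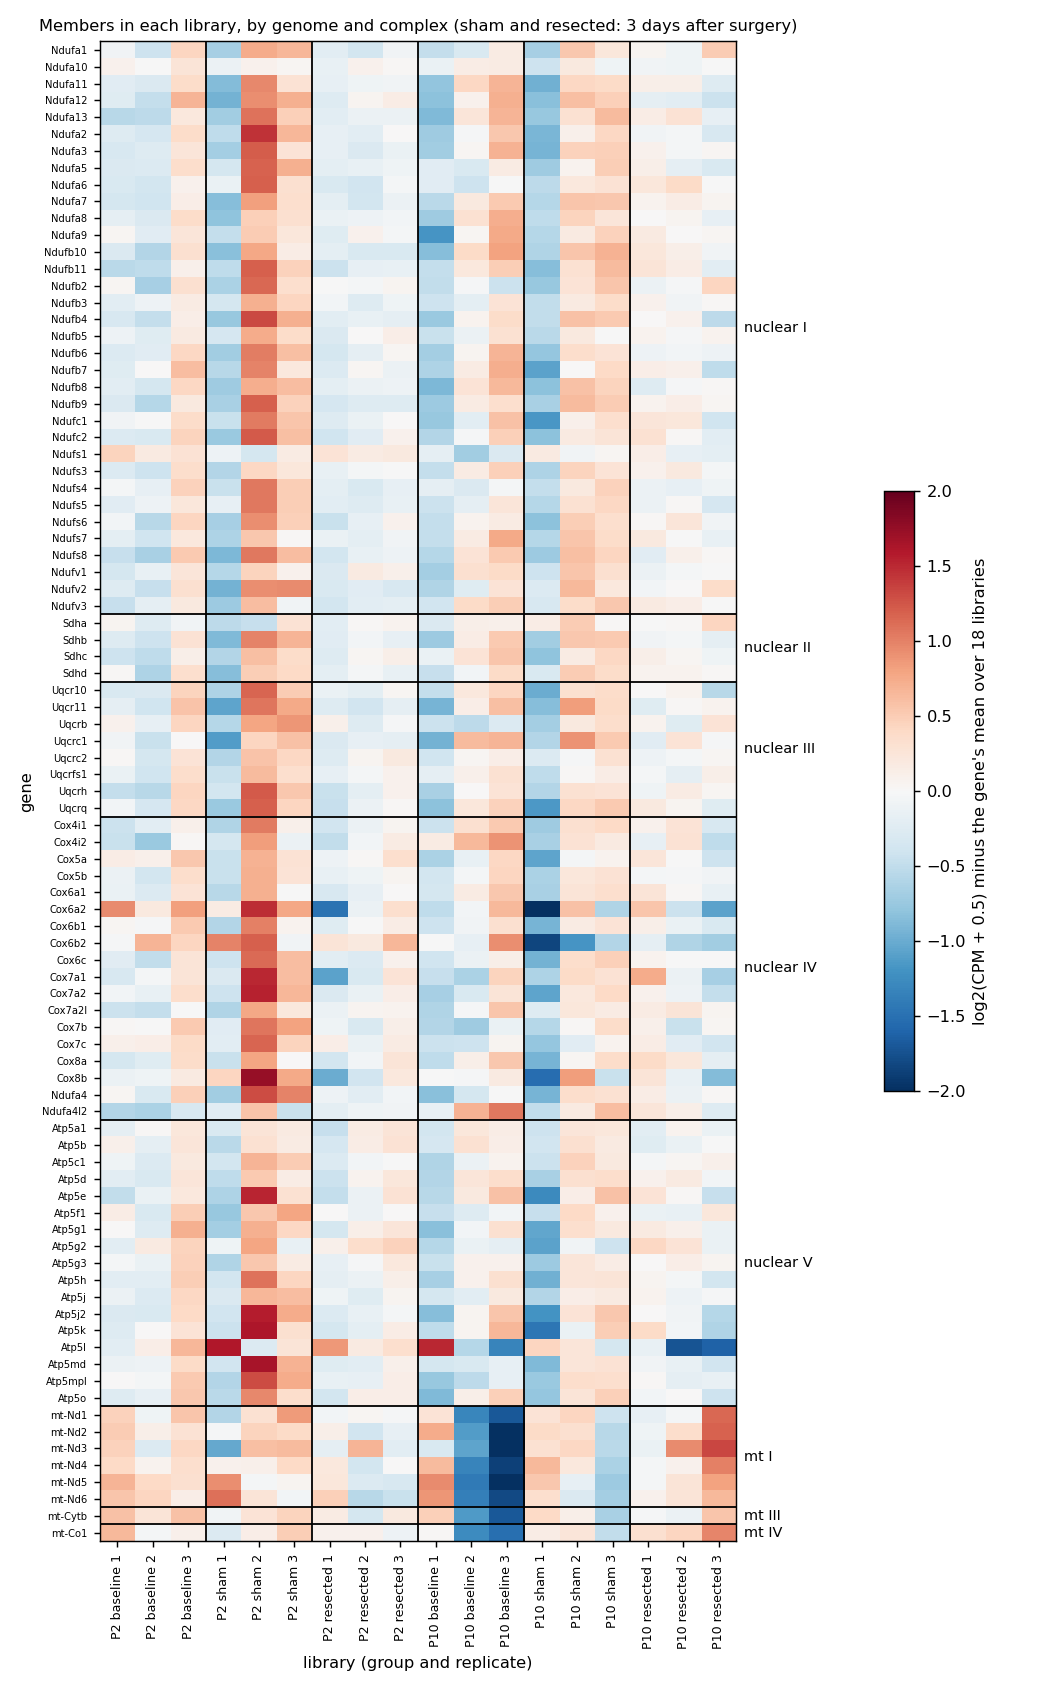
Each row is 1 of the members tested and each column 1 of the 18 libraries, and the colour is log2(CPM + 0.5) minus the gene's mean over libraries. Nuclear rows change colour together by library, highest in P2 sham replicate 2 and low in P10 sham replicate 1 and P2 sham replicate 1, and the mitochondrial rows are lowest in P10 baseline replicates 2 and 3.

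The mitochondrial members varied more and on their own. Their summed CPM was 5385, 3947 and 4852 at P2 baseline and 4888, 1543 and 1095 at P10 baseline. The sums were 3540, 4254 and 5206 at P2 sham, 3943, 3305 and 3642 at P2 resected, 4629, 4228 and 2474 at P10 sham, and 3740, 3988 and 6802 at P10 resected. The highest library exceeded the lowest by 6.21-fold, with a pooled SD within groups of 0.56 on the log2 scale and an SD of group means of 0.45. Log2 of the mitochondrial over the nuclear sum ran from -3.78 in P10 baseline replicate 3 to -0.72 in P10 resected replicate 3. Both P10 baseline libraries with low sums carry a letter P at the end of their titles, which no other title has and which the labels do not explain. Its part in the result was not tested.

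A gene's transcript length moved with the library differences. Among the 81 tested nuclear members with a length for their principal transcript (median 809 bases), the 41 shorter ones were a median of 1.05 above their mean log2 CPM in P2 sham replicate 2 and the 40 longer ones 0.65. In that library the other short genes were at a median of 0.83 and the other long genes at -0.08. Summed ribosomal protein genes (97 genes) reached 27584 CPM in P2 sham replicate 2 and 8248 to 16452 in the other libraries. In P10 sham replicate 1 the medians were -0.82 for short and -0.55 for long members. Whether RNA quality, amplification or input led to these differences was not tested.

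The first question was whether fibroblast respiration genes differ between P10 and P2 without surgery. None of 90 members tested passed edgeR's quasi-likelihood test after Benjamini-Hochberg adjustment over all 16170 genes at 0.05, which is what a called gene means here, against a background of 4.38% of all genes called. At an unadjusted p under 0.05 there were 5 members, or 5.56%, against 18.7% of all genes, and DESeq2 called 2 members, against 10.5% of all genes it tested. The groups did not overlap for 2 members higher and 7 lower, against 1661 higher and 1955 lower of all 16170 genes. The median log2 fold change was 0.02 over the 82 nuclear members (46 above 0 and 36 below), -0.84 over the 8 mitochondrial members (all below 0) and -0.03 over all genes tested. With 1 library left out the nuclear median ran from -0.19 (without P10 baseline replicate 3) to 0.24 (without P2 baseline replicate 3). The mitochondrial median ran from -1.92 (without P10 baseline replicate 1) to -0.46 (without P10 baseline replicate 3). Without TMM scaling the nuclear median was -0.14, when the median of all genes moved to -0.20.

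Ndufa4l2 had the lowest adjusted p of the members. It was at 59.8, 57.5 and 71.4 CPM at P2 baseline and at 81.1, 145 and 187 CPM at P10 baseline. The groups did not overlap, and the log2 difference was 1.13 (SE 0.33, 95% interval 0.44 to 1.82, adjusted p = 0.0611 by edgeR's quasi-likelihood test). DESeq2 called it higher. Cox4i2 was at 16.7, 13.5 and 23.4 CPM at P2 baseline and 25.8, 36.4 and 43.2 at P10 baseline, also without overlap, with a log2 difference of 0.97 (SE 0.38, adjusted p = 0.17). Both genes are known from pericytes, and mural cell markers were also higher between the groups: 5 of the 9 markers were called higher at P10 baseline, with a median log2 difference of 1.55. The summed mural markers were 583, 593 and 392 CPM at P2 baseline and 1566, 1067 and 830 at P10 baseline. Within groups they did not follow the 2 genes. The mural sum was highest in P10 baseline replicate 1, where both genes were lowest for that group. It was lowest in P2 baseline replicate 3, where both were highest for that group. The part of the mural markers in the values of Ndufa4l2 and Cox4i2 was not tested.

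Ndufs1 was lower at P10 baseline in every library, at 68.3, 47.6 and 63.3 CPM against 105, 87.1 and 94.8 at P2 baseline. The log2 difference was -0.68 (SE 0.21, 95% interval -1.12 to -0.24, adjusted p = 0.0731 by edgeR's quasi-likelihood test), and DESeq2 called it lower. Sdhc had a log2 difference of 0.50 (adjusted p = 0.433) with overlapping groups.

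**Figure D4:**
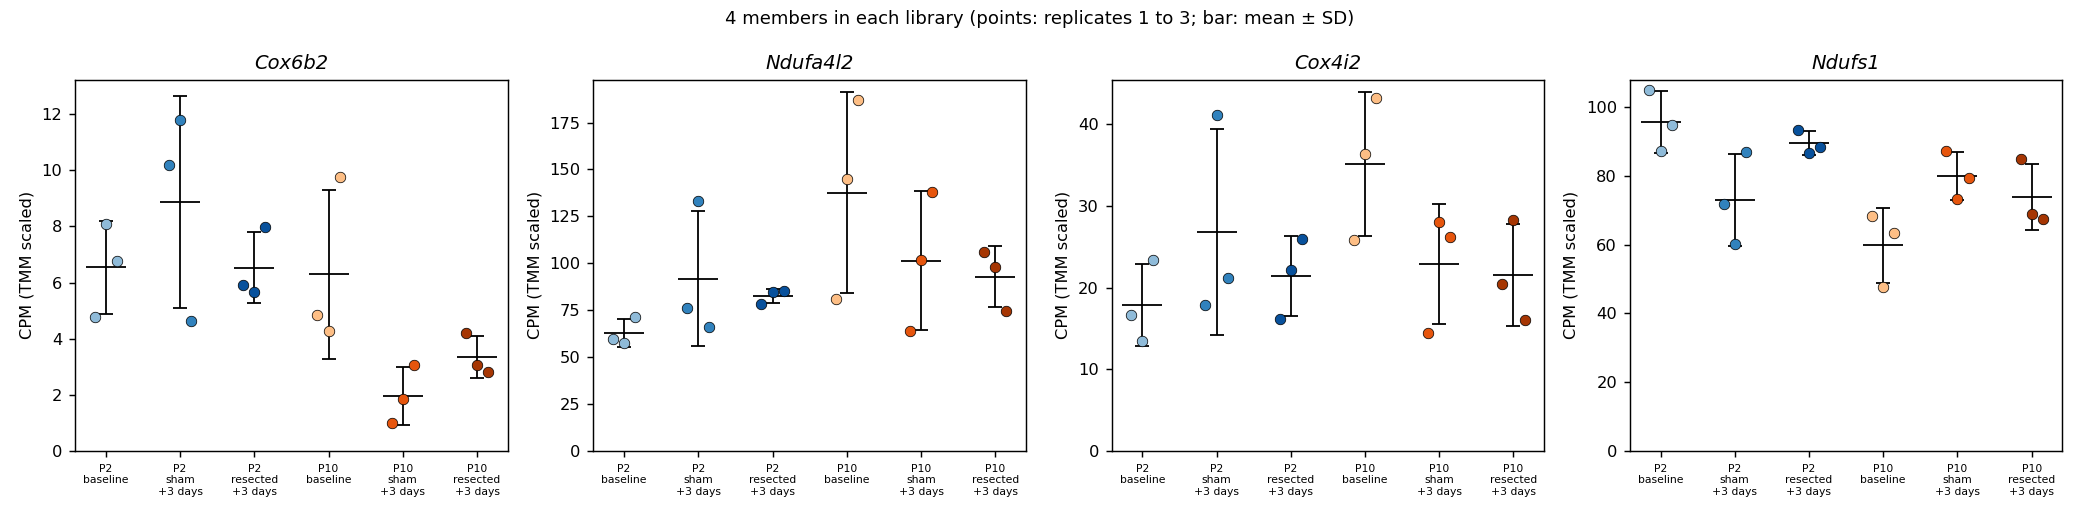
CPM of 4 members (y axis) in each library by group (x axis), with the mean ± SD (n = 3) per group. Cox6b2 is at 0.998 to 3.06 CPM in the P10 sham libraries, which overlap P10 resected (2.80 to 4.22 CPM), and at P10 baseline Ndufa4l2 is at 81.1 to 187 CPM, Cox4i2 at 25.8 to 43.2 CPM and Ndufs1 at 47.6 to 68.3 CPM, each apart from P2 baseline.

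The mitochondrial members at P10 baseline rested on replicates 2 and 3. For mt-Co1 the values were 1370, 850 and 940 CPM at P2 baseline and 889, 365 and 306 at P10 baseline, so replicate 1 fell inside the P2 range. The log2 difference was -1.02 (SE 0.35, adjusted p = 0.111 by edgeR's quasi-likelihood test). For mt-Cytb they were 1681, 1348 and 1691 CPM against 1561, 514 and 347, with a difference of -0.96 (SE 0.41, adjusted p = 0.218). For mt-Nd6, encoded on the other strand of the circle, they were 89.5, 81.7 and 66.9 against 112, 23.3 and 17.1. Without P10 baseline replicate 1, edgeR called 9 of 90 members, against 7.04% of all genes in that fit, with Ndufa4l2 higher and mt-Co1, mt-Cytb, mt-Nd1, mt-Nd2, mt-Nd4, mt-Nd5, mt-Nd6 and Ndufs1 lower. Cardiomyocyte markers had a median of -1.23 in the same comparison, with 11 of 11 tested below 0 and none called. Their sums were 1482, 1256 and 1094 CPM at P2 baseline and 702, 525 and 660 at P10 baseline, without overlap, and their part in the mitochondrial values was not tested. The mitochondrial sum differed by -1.21 on the log2 scale between the baseline groups with all libraries and by -1.85 without that replicate.

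After sham surgery the same age comparison, on other libraries, called 1 of 90 members by edgeR, against 3.18% of all genes, and 1 by DESeq2, against 8.07%. Without overlap there were 0 members higher and 1 lower, against 1466 higher and 1231 lower of 16170 genes. The nuclear median was -0.30 (69 of 82 below 0) and the mitochondrial median -0.17 (8 of 8 below 0), with -0.07 over all genes. Neither sign held with every library left out. Without P2 sham replicate 2 the nuclear median was 0.04, with 37 of 82 below 0. Leaving out P2 sham replicate 1 gave -0.63, and leaving out P10 sham replicate 1 gave -0.03. The mitochondrial median was 0.05 (2 of 8 below 0) without P10 sham replicate 3, -0.02 (4 of 8) without P2 sham replicate 3, and 0.12 (2 of 8) when scaled to the nuclear members. The shorter nuclear members had a median of -0.48 and the longer ones -0.22, beside -0.41 for 394 other short genes. The 12 core subunits compared (among them Ndufs1, Sdha, Sdhb, Uqcrc1, Cox5a and Atp5b) had log2 differences between -0.52 for Cox5a and 0.43 for Sdha.

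Cox6b2 was the called member. It was at 10.2, 11.8 and 4.63 CPM in the P2 sham libraries and at 0.998, 1.87 and 3.06 in the P10 sham libraries. The groups did not overlap, and the log2 difference was -2.16 (SE 0.56, 95% interval -3.34 to -0.98, adjusted p = 0.0439 by edgeR's quasi-likelihood test). At baseline the gene was at 4.78, 8.09 and 6.76 CPM at P2 and 4.85, 4.28 and 9.76 at P10, which overlap. After resection it was at 5.92, 5.68 and 7.98 CPM at P2 and 4.22, 3.05 and 2.80 at P10, without overlap, with a difference of -0.96 (SE 0.54, adjusted p = 0.703). Within P10, sham stood below baseline by a log2 difference of -1.66 (adjusted p = 0.576), again without overlap. Leaving out P2 sham replicate 1 or 2 or any P10 sham replicate lost the call, with differences from -2.62 to -1.84. At baseline, where Cox6b2 overlapped, 9 of 12 division markers were called lower at P10 by edgeR, with a median of -2.42. Between the sham groups 12 of 12 were called lower at P10, with a median of -3.24. In the same comparison cardiomyocyte markers had a median of -1.53 (10 of 11 below 0) and macrophage markers one of 1.37 (12 of 12 above 0), with none called. Their summed levels were 1063, 1264 and 909 CPM at P2 sham and 163, 814 and 279 at P10 sham for cardiomyocytes, without overlap, and 5.29, 101 and 202 against 91.6, 378 and 304 for macrophages, which overlap. The part of these lists in the values of Cox6b2 was not tested.

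After resection none of 90 members was called between P10 and P2 by edgeR's quasi-likelihood test, against 0.86% of all genes, and none by DESeq2, against 3.63%. At an unadjusted p under 0.05 there was also no member, against 8.77% of all genes. Without overlap there were 10 members higher and 3 lower, against 1721 higher and 2054 lower of 16170 genes. The nuclear median was 0.09 (59 of 82 above 0), which was -0.03 without TMM scaling, and the mitochondrial median 0.47 (8 of 8 above 0), with -0.04 over all genes. Leaving out 1 library gave nuclear medians from 0.04 (without P2 resected replicate 1) to 0.16 (without P2 resected replicate 3 or P10 resected replicate 3). The mitochondrial median was 0.27, with 2 of 8 below 0, without P10 resected replicate 3. Marker medians, none called, were 1.79 for red cells (6 of 7 above 0), 1.18 for macrophages (11 of 12) and 0.66 for endothelial cells (8 of 9). They were 0.19 for mural cells (5 of 9 above 0) and -0.55 for cardiomyocytes (9 of 11 below 0). Their part was not tested. Among members above 0, mt-Co1 had the smallest p, at 926, 926 and 814 CPM at P2 resected and 1093, 1180 and 1720 at P10 resected. These groups did not overlap, with a log2 difference of 0.58 (SE 0.35, adjusted p = 0.733). All 8 mitochondrial members were below 0 at baseline, and the difference between these age effects was not tested. Atp5l had a difference of -1.94 with a wide interval of -4.02 to 0.14, at 0.254 to 7.05 CPM over all libraries.

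In the comparison of the 3 P10 groups with the 3 P2 groups, which uses the libraries of all the above, 1 of 90 members was called, against 13.5% of all genes. This was Cox6b2, with a log2 difference of -1.06 (SE 0.31, 95% interval -1.72 to -0.40, adjusted p = 0.0322 by edgeR's quasi-likelihood test). DESeq2 called Cox6b2 and Cox7c lower, against 19.4% of all genes called. In edgeR the call of Cox6b2 was lost when any of 11 libraries was left out, with differences from -1.21 to -0.95 over all 18 such fits. The nuclear median was -0.07 (53 of 82 below 0) and the mitochondrial median -0.22 (8 of 8 below 0), beside -0.06 over all genes. Without P2 sham replicate 2 the nuclear median was 0.05 (30 of 82 below 0), and without P2 sham replicate 1 it was -0.18. The mitochondrial median was -0.50 without P10 baseline replicate 1 and -0.11 (6 of 8 below 0) without P10 baseline replicate 3. By complex, the nuclear medians were -0.03 for complex I, 0.11 for complex II, -0.08 for complex III, -0.19 for complex IV and -0.20 for complex V. These 12 core subunits all had 95% intervals inside 1 log2 unit, from a lowest bound of -0.75 for Cox5a to a highest of 0.84 for Uqcrc1. Atp5b, for example, was at 946 to 1731 CPM over the 18 libraries, with a log2 difference of -0.05 (SE 0.15).

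**Figure D5:**
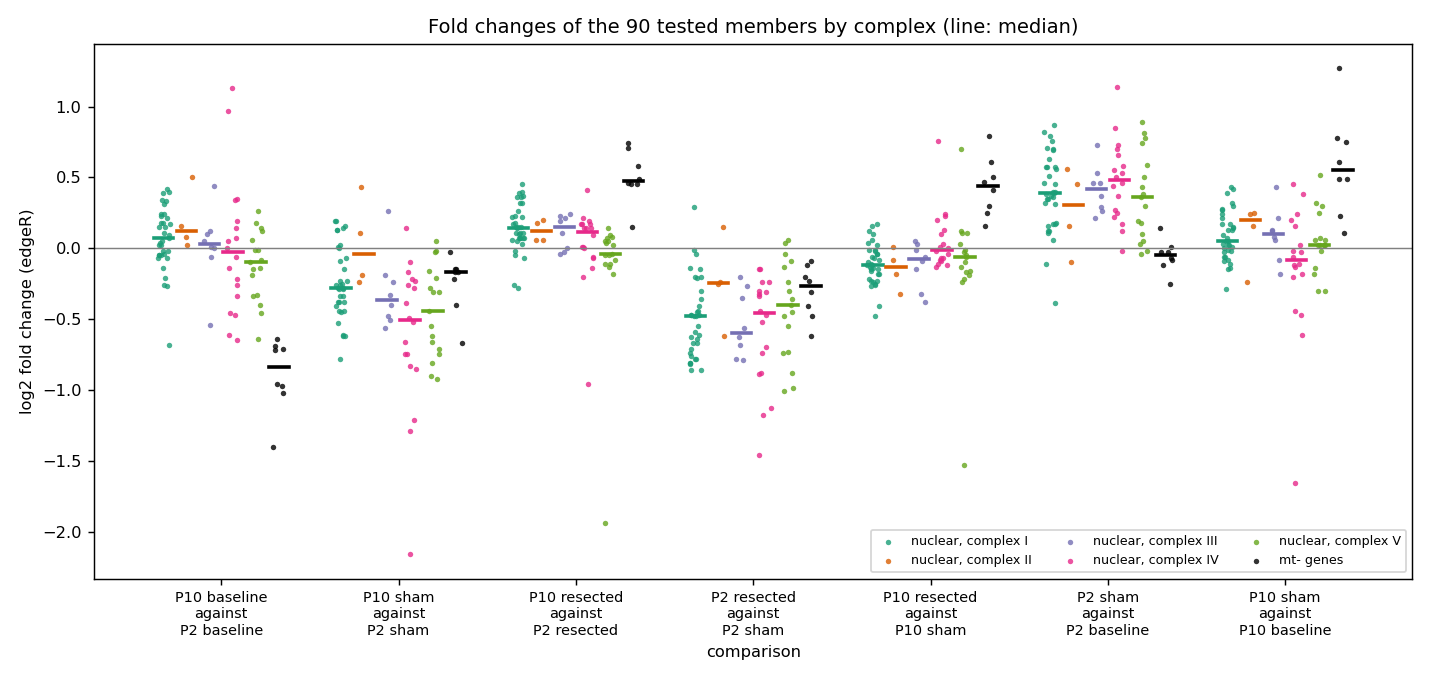
Log2 fold changes (y axis) of the 90 members tested in the 7 comparisons of group pairs (x axis), 1 point per gene, coloured by nuclear complex with the mitochondrial members in black, and a line at each median. The nuclear members lie mostly below 0 in P2 resected against P2 sham, and the 8 mitochondrial members lie on 1 side of 0 in all these comparisons but P2 sham against P2 baseline.

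Resection at P2, compared with sham, called 0 of 90 members with edgeR, against 0% of all genes, and 0 with DESeq2, against 0.2%. At an unadjusted p under 0.05 there were 11 members, 12.2% of 90, against 4.51% of all genes. Over nuclear members the median was -0.47, with 78 of 82 below 0, and the mitochondrial median -0.27, with 8 of 8 below 0, beside 0.00 for all genes. The nuclear medians were -0.48 for complex I, -0.24 for complex II, -0.59 for complex III, -0.46 for complex IV and -0.40 for complex V. Without P2 sham replicate 2 the nuclear median was -0.13, with 52 of 82 below 0, and without P2 sham replicate 1 it was -0.79. The mitochondrial median was -0.10 (5 of 8 below 0) without P2 sham replicate 3 and 0.01 (4 of 8) when scaled to the nuclear members. Markers of other cells, none called, had medians of -1.19 for red cells (7 of 7 below 0) and -0.82 for cardiomyocytes (9 of 11 below 0). Those above 0 were 0.94 for macrophages (11 of 12), 0.46 for mural (7 of 9) and 0.24 for endothelial cells (7 of 9). Their part in these medians was not tested. The 41 shorter members had a median of -0.56 and the 40 longer ones -0.31, and 394 other short genes had one of -0.46. Spearman's correlation of the difference with transcript length over the 81 members was 0.49. The P2 resected libraries had counts for 20163, 19707 and 20044 genes and the P2 sham libraries for 17213, 16384 and 17058, without overlap. The part of this difference was not tested.

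Atp5md, Ndufa6 and Cox8b, the members below 0 with the smallest p, were each highest in P2 sham replicate 2. Atp5md was at 52.7, 217 and 112 CPM at P2 sham and at 58.1, 59.7 and 73.8 at P2 resected, so that the lowest sham library was below all resected ones. Its log2 difference was -0.99 (SE 0.39, adjusted p = 1 by edgeR's quasi-likelihood test). Ndufa6, an accessory subunit of complex I, was at 69.8, 176 and 95.8 CPM against 61.6, 58.9 and 74.2, with a difference of -0.81 (SE 0.30, adjusted p = 1). Cox8b was the only member whose groups did not overlap, at 11.3, 28.8 and 14.2 CPM against 3.87, 6.19 and 9.63, with a difference of -1.46 (SE 0.57, adjusted p = 1). Over all 16170 genes tested, 461 were lower and 908 higher without overlap. The 12 cardiomyocyte markers summed to 1063, 1264 and 909 CPM in the P2 sham libraries and 315, 841 and 923 in the resected ones, and their part in the values of Cox8b was not tested. Ndufs1 had the opposite sign, 0.29 (SE 0.21).

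Resection at P10 called 0 of 90 members with edgeR, against 0% of all genes, and 0 of 93 with DESeq2, against 0.206%. At an unadjusted p under 0.05 edgeR had 0 members, against 4.09% of all genes. Without overlap there were 1 member higher and 0 lower, against 911 higher and 492 lower of 16170 genes. Nuclear members had a median of -0.07 (58 of 82 below 0) and the mitochondrial median 0.44 (8 of 8 above 0), beside 0.02 for all genes. The nuclear median was 0.11 without P10 sham replicate 3 and -0.33 without P10 sham replicate 1, and the mitochondrial one was 0.09 without P10 resected replicate 3 and 0.19 without P10 sham replicate 3. Markers of other cells also had medians above 0 in this comparison with none called, at 1.47 for endothelial (8 of 9 above 0), 1.36 for red cell (6 of 7), 0.90 for macrophage (11 of 12) and 0.36 for cardiomyocyte markers (9 of 11), and division markers were at 1.21 (12 of 12). Their summed levels overlapped between the groups. Their part in the mitochondrial values was not tested. The P10 resected libraries had counts for 19847, 17334 and 17080 genes and the P10 sham libraries for 16458, 16256 and 16413, without overlap. The part of this difference was also not tested. The gene mt-Co1 was at 964, 1032 and 620 CPM at P10 sham and 1093, 1180 and 1720 at P10 resected, without overlap, with a log2 difference of 0.61 (SE 0.35, adjusted p = 1 by edgeR's quasi-likelihood test). For Atp5g2 the difference was 0.70 (SE 0.37), with overlapping groups.

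Whether the effect of resection differed by age was tested as an interaction. This was called for 0 of 90 members by edgeR, against 0% of all genes, and for 0 of 93 by DESeq2, against 0.115%. Ndufa6 alone had an unadjusted p under 0.05, 1.11% of the members against 2.88% of all genes, with a difference of 0.98 (SE 0.43, 95% interval 0.08 to 1.89). Nuclear members had a median of 0.45 (73 of 82 above 0), beside 0.03 for all genes. Leaving out P2 sham replicate 2 gave 0.06, leaving out P10 sham replicate 1 gave 0.16, and leaving out P2 sham replicate 1 gave 0.75. Mitochondrial members had a median of 0.81 (8 of 8 above 0). It was 0.49 without P10 resected replicate 3, and 0.37 with 1 of 8 below 0 when scaled to the nuclear members.

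Sham surgery and 3 days of growth could not be told apart. Between P2 sham and P2 baseline 0 of 90 members were called by edgeR, against 0% of all genes, and 0 by DESeq2, against 1.09%. At an unadjusted p under 0.05 edgeR had 1 member (Ndufa6, 0.76), against 7.6% of all genes. Without overlap there were 1 member higher and 1 lower, against 725 higher and 885 lower of 16170 genes. Over nuclear members the median was 0.39 (76 of 82 above 0), which was 0.05 without P2 sham replicate 2, 0.62 without P2 baseline replicate 3 and 0.69 without P2 sham replicate 1. The mitochondrial median was -0.05, and ran from -0.21 without P2 sham replicate 3 to 0.06 without P2 baseline replicate 1. Marker medians, none called, were 2.38 for red cells (7 of 7 above 0), 0.66 for macrophages (9 of 12) and 0.58 for mural cells (6 of 9). They were -0.61 for cardiomyocytes (8 of 11 below 0) and -0.26 for endothelial cells (6 of 9 below 0). Their part was not tested. Between P10 sham and P10 baseline 0 of 90 were called by edgeR, against 0.00618% of all genes, and 0 by DESeq2, against 1.01%. At an unadjusted p under 0.05 there were Cox6b2, lower, and mt-Co1, higher by 0.75 (SE 0.35), against 7.4%. Without overlap there were 1 member higher and 1 lower, against 864 higher and 758 lower of 16170 genes. The nuclear median there was 0.03, and ran from -0.19 without P10 baseline replicate 1 to 0.31 without P10 baseline replicate 3. The mitochondrial median was 0.55, and was 1.68 without P10 baseline replicate 1, 0.28 (2 of 8 below 0) without P10 baseline replicate 2 and 0.17 (2 of 8) without P10 baseline replicate 3. Marker medians, none called, were 1.43 for macrophages (12 of 12 above 0), 0.21 for endothelial cells (5 of 9) and 0.01 for red cells (4 of 7). They were -0.54 for mural cells (9 of 9 below 0) and -0.56 for cardiomyocytes (9 of 11 below 0). Their part was not tested.

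Few genes of the pathway outside the members were called, and in the P10 against P2 window their counts stand beside 13.5% of all genes called. Of 45 assembly factors tested, which help build the complexes, none was called in any of the 9 comparisons, and their median in P2 resected against P2 sham was -0.43 (40 of 45 below 0). The 77 mitochondrial ribosomal proteins tested, which translate the mitochondrial messages, had a median of -0.41 in that comparison (73 of 77 below 0). Both lists varied widely between the sham libraries: the assembly factors summed to 880, 1789 and 1551 CPM at P2 sham and 1113, 1075 and 975 at P2 resected, and the ribosomal proteins to 2354, 5568 and 4294 CPM at P2 sham and 3162, 3187 and 2973 at P2 resected. Sham replicate 1 was below all resected libraries for both lists, and sham replicate 2 was the highest of the 18 libraries. Without P2 sham replicate 2 the medians were -0.26 for the assembly factors and -0.10 for the ribosomal proteins (49 of 77 below 0), and without P2 sham replicate 1 they were -0.63 and -0.64 in that order. The 13 enzymes of the tricarboxylic acid cycle had one of -0.02. In the P10 against P2 window, Mrps22 of the mitochondrial ribosome was called lower (-0.64, SE 0.20, adjusted p = 0.0391 by edgeR's quasi-likelihood test), 1 of 77. Ssbp1, which binds single-stranded mitochondrial DNA, was called lower (-0.64, SE 0.16, adjusted p = 0.01), 1 of 19 tested genes for upkeep and expression of the mitochondrial genome. Vdac1, an outer membrane channel, was called lower (-0.38, SE 0.12, adjusted p = 0.0406), 1 of 7 carriers.

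Of 12 tested regulators of mitochondrial genes, 2 were called lower in the window, a share near the 13.5% of all genes, so the counts say nothing particular about regulators. Gabpb1, a partner of the ETS factor Gabpa, had a difference of -0.79 (SE 0.18, adjusted p = 0.00679 by edgeR's quasi-likelihood test). It was at 26.5 to 67.8 CPM in the 9 P2 libraries and 14.4 to 34.8 in the 9 P10 libraries, which overlap. Ppargc1a, a coactivator that drives mitochondrial biogenesis in many tissues, had a difference of -3.30 (SE 0.99, adjusted p = 0.0342). Its values were low, from 0 to 8.14 CPM in the P2 libraries, where 2 of 9 were at 0, and from 0 to 1.27 CPM in the P10 libraries, where 2 of 9 were at 0. In the same comparison 6 of 11 cardiomyocyte markers were also called lower, and their part in this value was not tested.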

How the data were processed

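Bulk RNA-seq of sorted GFP+ cells was analysed in 18 libraries. Each library started from little RNA, amplified as cDNA (SMARTer v4) before Nextera XT tagmentation. The authors trimmed reads with fastp 0.20.0, mapped them with STAR 2.7.0f to GRCm38.p6 and counted reads on exons per gene symbol with featureCounts (Subread 1.6.4) against GENCODE M22, without strand. The deposited values are raw counts. Libraries held from 10462737 to 22980554 counted reads, and intervals are those of the fit. Replicates differed by more than sampling noise (chi-square per gene 34.2 to 295 over 18 pairs).

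The tests used edgeR 4.0.16 (R 4.3.3), with TMM scaling, filterByExpr at its defaults and 1 quasi-likelihood fit of all 18 libraries with 1 mean per group. Benjamini-Hochberg adjusted p under 0.05 over all 16170 genes was called, and 90 members were tested. The 5 members not tested were mt-Nd4l, Ndufa11b, Ndufs6b, Cox6c2 and Ndufb4c. DESeq2 1.42.0, another scaling, other filters, a replicate block and leaving out each library were alternatives. Tests were checked on simulated data. Tables and figures used Python 3.11.15, pandas 2.3.3, numpy 2.4.6 and matplotlib 3.10.9. Lengths, overlaps and 75-base words came from GENCODE M21 transcripts, and CPM per kb uses exon length. Members and lists were chosen with earlier results of these data known. Genes were named by a rule: all mitochondrial members, core subunits, isoform sets, the highest and lowest per complex, called members and, where none was called, up to 3 per direction with the smallest p. Some of these are given only as ranges or within counts. One member is counted in the totals and not reported singly here. Spatial data were not analysed here.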

Additional observations from a re-analysis of the deposited data

Results flagged for a closer look

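Ndufs1 had values of opposite sign at the 2 ages after sham surgery, neither of which passed edgeR's quasi-likelihood test. Its log2 difference from baseline was -0.39 at P2 (SE 0.21, 95% interval -0.83 to 0.05, adjusted p = 0.681), where all 3 sham libraries were below all baseline libraries. It was 0.42 at P10 (SE 0.21, -0.01 to 0.86, adjusted p = 0.682), where all 3 were above. The difference between the ages was not tested.

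Symbols containing -ps were not used in the comparisons, and all 8 had counts over the 18 libraries. Ndufb1-ps, which GENCODE M21 annotates as a long non-coding RNA of a bidirectional promoter, had 21314 counts. The others, annotated as processed pseudogenes, had few, with 18 for Uqcrh-ps2, 12 for Atp5l2-ps, 10 for Atp5k-ps2, 8 each for Atp5c1-ps, Atp5l-ps1 and Uqcrh-ps1, and 4 for Atp5l-ps2.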

How the results depend on the processing

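Of the values recomputed for calls and summed levels, 293 stayed within 1.5 times the count or 1 SD between replicates and 32 did not. This band was wide. The nuclear differences ran from -0.29 to 0.24 with all libraries, beside a pooled SD within groups of 0.43. No called value changed sign, but summed levels, which were not tested, changed sign in 26 of 182 recomputed values, spread over 11 of 21 differences. With a library left out, the difference after sham ran from -0.57 to 0.12 for the nuclear sum and from -0.53 to 0.39 for its mitochondrial ratio. Between P10 and P2 baseline, 0 members were called, but 1 with relative log expression size factors (Ndufa4l2, against 4.56% of all genes), 1 with library totals and no scaling (Ndufs1, against 4.61%), 4 of 95 with no filter beyond 1 count (mt-Co1, mt-Cytb, mt-Nd1 and Ndufa4l2, against 4.0%), 2 with DESeq2 (10.5%) and 0 to 9 with a library left out (9 without P10 baseline replicate 1, against 7.04%). Between P10 and P2 sham, 1 was called, but 0 with no filter (against 3.15% of all genes), 0 with only the groups compared in the fit (0.908%), 0 with scaling to the nuclear members' summed counts (1.72%, chosen after seeing the data) and 0 to 2 with a library left out (2, Atp5md and Cox7c, without P2 sham replicate 1, against 2.39%). In the P10 against P2 window, 1 was called, but 4 without scaling (against 15.8% of all genes), 0 with no filter (9.54%), 2 with DESeq2 (19.4%) and 0 to 5 with a library left out (9.73% to 17.4%). The 5 were without P2 sham replicate 1 (13.1%) or P10 baseline replicate 1 (17.4%). The 0 were without P2 baseline replicate 2 or 3, any P2 resected replicate, P10 baseline replicate 2, P10 sham replicate 2, or P10 resected replicate 2 or 3. Without P2 sham replicate 2 or P10 sham replicate 1 it was 1, Ndufa4l2 in place of Cox6b2. With a library left out, the mitochondrial sum between baselines differed by -1.85 to -0.77 and its ratio to the nuclear sum by -2.11 to -0.60. Between P10 sham and baseline these were 0.41 to 1.49 and 0.19 to 1.70. The cause was not tested.

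With the replicate number as a block, 2 members were called between the baselines, against 6.23% of all genes. Whether the numbers pair the libraries is not stated in the labels. Deviations of same-numbered libraries correlated at medians of 0.05, 0.10 and 0.03 for numbers 1 to 3, with highest values of 0.38, 0.19 and 0.15. Replicate 1 had the lowest nuclear sum at P2 sham (8065), P2 resected (9841), P10 baseline (8287) and P10 sham (7799). This did not hold at P2 baseline or P10 resected. Titles of its P2 sham, P10 baseline and P10 sham libraries share the number 3. The block changed no other count of members called. Over all genes it called 1008 in place of 709 between the baselines, 636 in place of 515 between the sham groups, 186 in place of 139 between the resected groups, 2745 in place of 2184 in the window, and 1 in place of 0 after resection against sham at each age. Library totals without scaling moved the median of all genes by over 0.1 in the 4 age comparisons, for example from -0.07 to -0.21 after sham.

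The libraries were 3 per group, and low genes such as Cox6b2 and Ppargc1a have wide intervals. Mitochondrial values rest on few genes, among them mt-Co1 with 39.8% and mt-Nd4 with 61.5% of their words shared. Differences in length bias, cell make-up and RNA input between libraries cannot be told apart from group effects where they fall in the same libraries.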

Other observations

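The complex I subunit Ndufab1, the complex III subunit Cyc1 and the electron carrier Cycs, which the name rule leaves out, were tested with the same fit. None of the 3 was called in the 9 comparisons by edgeR's quasi-likelihood test, and their median log2 difference ran from -0.53 in P10 baseline against P2 baseline to 0.28 for the resection effect at P10 minus that at P2. It was -0.42 in P2 resected against P2 sham and 0.22 in P2 sham against P2 baseline, which share the P2 sham libraries. In those libraries the 3 genes summed to 165, 385 and 354 CPM, and replicate 1 was the lowest and replicate 2 the highest of the 18. Without P2 sham replicate 2 these medians were -0.27 and -0.02.

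Division markers moved much more than any respiration list with age. By edgeR's quasi-likelihood test 9 of 12 were called lower at P10 baseline (median -2.42), against 4.38% of all genes. After sham surgery 12 were called (median -3.24), against 3.18%, and after resection 2 (median -1.79), against 0.86%. The difference between these age effects was not tested.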
